A study of Rattus norvegicus with 15 samples.

Results

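Gene expression was compared between the cortex of 4 rats given vagus nerve stimulation (VNS) and the cortex of 4 control rats, which are 8 of the 15 libraries of the study. VNS rats were stimulated for 30 min on each of 4 days through an implanted device, while the controls had a sham one. The brains were taken straight after the last stimulation. The titles of the cortex samples carry the code AC, which the labels do not explain. The labels name no strain, age or sex of the rats, and do not say whether these rats performed the novelty task of the study. The unit counted is the RefSeq transcript record, one annotated transcript with its strand. Records with at least 10 reads in at least 4 of the 8 libraries were tested, which kept 4045 of 18278 records.

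The vagus carries signals from the viscera to the brainstem. From there the locus coeruleus, the raphe nuclei and the basal forebrain, the brain's sources of noradrenaline, serotonin and acetylcholine, reach the whole cortex. Neuronal activity switches on the immediate early genes, such as Arc, Fos and Egr1, and the microRNAs miR-132 and miR-212, whose shared precursor is a known target of the transcription factor CREB.

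Libraries were made with a stranded mRNA kit in which the first read of a pair comes from the strand opposite to the RNA. Per the file header, reads were counted with an option that assigns a read to a record on the read's own strand. For every record it was therefore asked whether a gene on the opposite strand could have given its reads. Cortex libraries held 329130 to 435296 counts, against 16728486 to 51463555 in the 7 hippocampal libraries, which were counted without regard to strand. The labels tie no library to a litter or day, so p-values measure only the spread between these libraries.

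Of the 4045 records, 1 passed an adjusted p of 0.05 in edgeR's quasi-likelihood test (0.0247%). This record was Ovca2, a predicted serine hydrolase. It lies on the minus strand of chromosome 10, and among the counted records (rn5) the nearest that run toward it on the plus strand are Mir132 and Mir212. The mature sequences of miR-132 and miR-212 are shown because these are the named products of the counted records that face Ovca2 on the other strand. They are RefSeq sequences of assembly GRCr8, written 5′ to 3′ with the seed, bases 2 to 8, in capitals.
miR-132-3p: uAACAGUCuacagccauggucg
miR-212-3p: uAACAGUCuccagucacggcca
miR-132-5p: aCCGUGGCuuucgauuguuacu
miR-212-5p: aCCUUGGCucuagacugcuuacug
The 2 arms named 3p share the seed AACAGUC, while the 5p arms have different seeds. Mature microRNAs were not measured in these libraries.

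Ovca2 fell in VNS cortex. Its counts were 28, 48, 49 and 50 in control libraries 1 to 4, against 4, 9, 0 and 8 in VNS libraries 1 to 4. Every VNS library lay below every control. The record met the read filter only through the 4 controls, where it was high, so a record that entered in this way had to differ between the groups. The log2 fold change, VNS minus control, was -3.04 (SE 0.50, 95% interval -4.08 to -1.99, adjusted p = 0.025 with edgeR's quasi-likelihood test). The call was lost when control library 2, 3 or 4 was left out (adjusted p = 0.107, 0.0982 and 0.180), or VNS library 1 or 4 (adjusted p = 0.0812 and 0.0587), nor with limma-voom (adjusted p = 0.998). In all of these fits the fold change lay between -3.60 and -2.92.

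The Ovca2 record (NM_001109036, rn5, chromosome 10, 61731737 to 61734899) shares 709 exonic bases with Dph1, a diphthamide synthesis gene on the same strand. By the default of the counting program, reads in shared bases go to neither record. Dph1 had 4, 10, 33 and 9 counts in control libraries 1 to 4, too few to be tested, and 0, 3, 1 and 0 in VNS libraries 1 to 4. Its groups did not overlap either, with VNS below control. Dph1 was chosen after its values were seen. When all 13006 records with a read were tested, Dph1 had a log2 fold change of -3.69 (adjusted p = 0.0138, edgeR quasi-likelihood test). The same fit gave Ovca2 an adjusted p of 4.37e-08. It gave 1.74e-13 to Kti12, a record whose reads lie almost all in VNS library 1. The p-values of this fit are therefore not set beside those of the main one.

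No exon on the opposite strand overlapped Ovca2 in the count annotation. Mir132 ended 2251 bp short of the 3′ end of Ovca2, on the plus strand and running toward it, with Mir212 a further 182 bp upstream. In assembly GRCr8 a plus-strand long noncoding RNA (LOC120095261) is annotated between Mir132 and Ovca2. The precursor records of both microRNAs were near 0: Mir132 had at most 2 counts in any library and Mir212 had 0, 1, 3 and 0 in controls and 0, 9, 2 and 0 after VNS. Hic1, a transcriptional repressor on the minus strand, had 4, 17, 11 and 2 counts in controls and 8, 3, 4 and 7 after VNS. Smg6, a nonsense-mediated decay factor on the plus strand, had 30, 38, 20 and 22 counts in controls and 32, 24, 66 and 32 after VNS. For these 4 neighbours the groups overlapped. With the kit and counting option named above, reads of a gene's RNA may not be assigned to its own record. These counts therefore cannot show whether RNA of the neighbouring genes differed between the groups. In the hippocampus Ovca2 was at 3.60, 3.70 and 7.15 CPM in controls and at 4.58, 5.15, 5.29 and 5.80 CPM after VNS, where CPM stands for reads per 1000000 of the library size after TMM scaling. These values overlapped, and the cortical controls were at 126 ± 29.8 CPM (SD, n = 4). Whether cortical reads of Ovca2 came from the Ovca2 gene or from RNA of the other strand cannot be told apart with these counts.

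**Figure D1:**
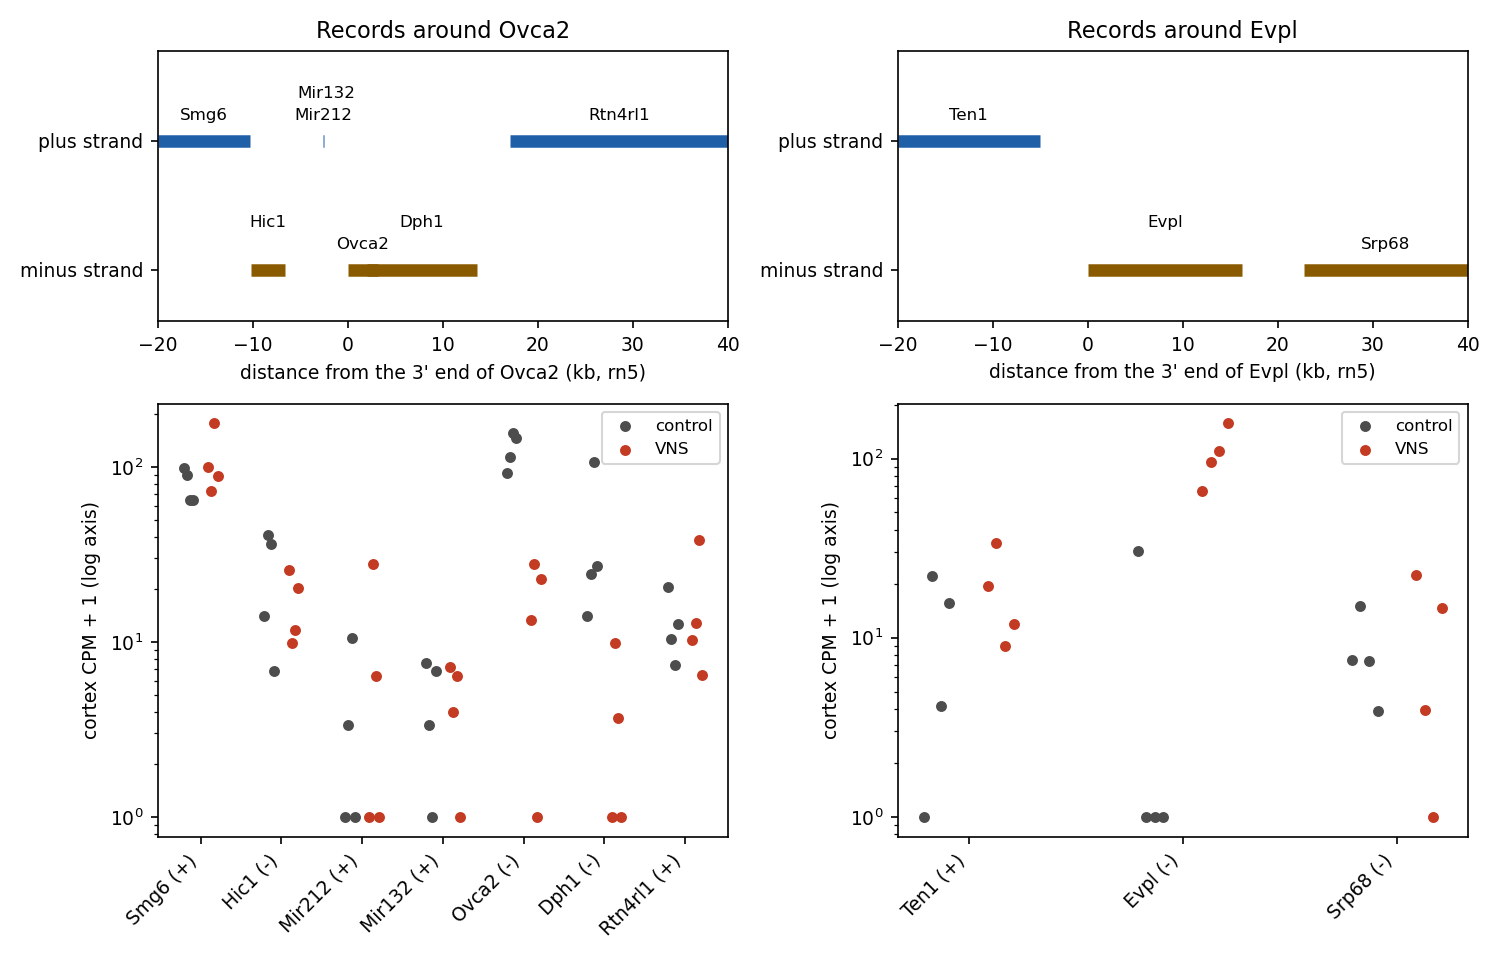
Records around Ovca2 (left) and Evpl (right). The upper panels map them by strand against distance from the 3′ end in kb (rn5), and the lower panels give cortex CPM plus 1 on a log axis for each control and VNS library. Ovca2 and Dph1, both on the minus strand, are lower in all 4 VNS libraries than in any control, whereas the groups overlap for the plus-strand neighbours.

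Evpl, the gene of the cornified envelope protein envoplakin, came next and did not pass. It had 9, 0, 0 and 0 counts in control libraries 1 to 4 and 21, 32, 41 and 57 in VNS libraries 1 to 4. All 4 VNS libraries lay above control library 1, the only control with reads, and Evpl met the read filter only through the VNS libraries. The log2 fold change was 3.93 (SE 0.73, 95% interval 2.41 to 5.44, adjusted p = 0.0516, edgeR quasi-likelihood test). Without control library 1 it passed (adjusted p = 2.21e-05).

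The Evpl record (NM_001107066, rn5, chromosome 10, 104768346 to 104784610, minus strand) is faced at 5025 bp by Ten1, a telomere-capping gene on the plus strand. Ten1 had 0, 9, 1 and 5 counts in controls and 6, 11, 3 and 4 after VNS. Srp68, a signal recognition particle gene that follows on the minus strand, had at most 7 counts in any library. Neither neighbour separated the groups. As at the Ovca2 locus, such counts cannot show whether RNA of the neighbouring genes differed. The source strand of the Evpl reads was not tested. In the hippocampus Evpl stood at 0.45, 0.94 and 0.87 CPM in controls and at 0.03, 0.19, 0.41 and 0.64 CPM after VNS, compared with 106 ± 38.2 CPM in VNS cortex (SD, n = 4).

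**Figure D2:**
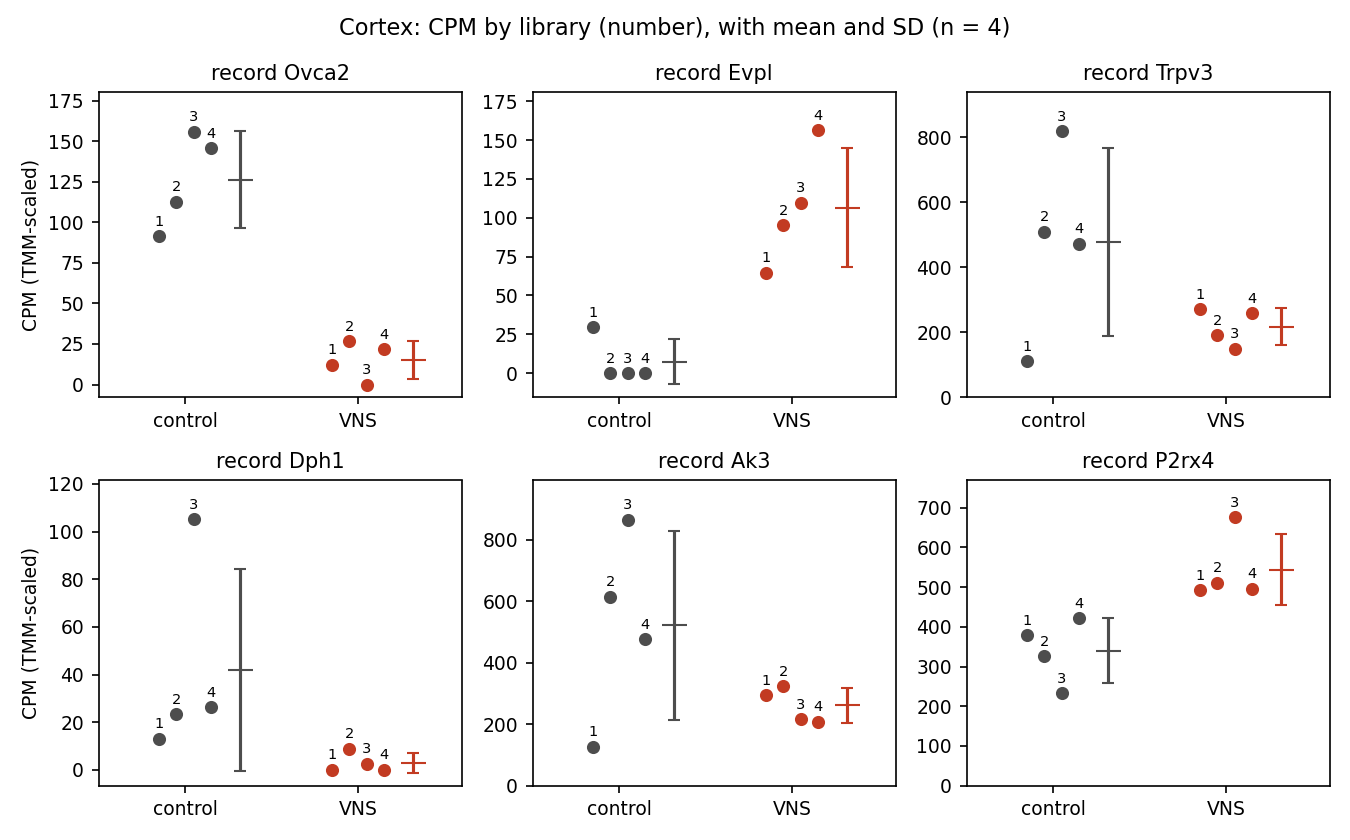
CPM of 6 records in each cortex library (points, numbered by library), with the mean and SD of each group (n = 4). The groups are apart for Ovca2, Dph1, Evpl and P2rx4, while control library 1 lies below the VNS libraries for Trpv3 and Ak3.

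Beyond Ovca2, the comparison gave no record that passed. An unadjusted p under 0.05 was found for 95 records (2.35%), 47 higher (1.16%) and 48 lower (1.19%) in VNS. The libraries of the 2 groups did not overlap for 90 records (2.22%), with VNS higher in 48 (1.19%) and lower in 42 (1.04%). The 24 records of smallest p that carry a gene symbol were examined for a source on the opposite strand. In VNS cortex 9 had higher values and 15 lower ones, and the groups were apart for 15. An opposite-strand neighbour was found for 17, namely an exon overlap for 1, a gene overlapping in GRCr8 for 8 and a record facing it within 10 kb for 8. The other 7 had none by these criteria, as had 39.6% of all tested records. Only overlapping and facing genes were sought, and genes of unknown strand in GRCr8 could be missed. Other than Ovca2 and Evpl, each of the 24 records had an adjusted p of 0.9995 (edgeR quasi-likelihood test).

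Rgs20, which ends signalling by Gi-class G proteins, had 12, 10, 12 and 12 counts in controls and 2, 3, 2 and 5 after VNS (log2 fold change -1.93, SE 0.58). Its groups were apart, at counts close to the limit for testing, which it met only through the controls. Atp6v1h, a proton pump subunit gene, overlaps it on the other strand in GRCr8. Igsf8, an immunoglobulin superfamily membrane protein, had 28, 18, 31 and 18 counts in controls and 43, 49, 60 and 46 after VNS (1.001, SE 0.32). Every VNS library was above every control. Kcnj9, a potassium channel gene, faces Igsf8 at 2256 bp and overlaps it in GRCr8.

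P2rx4, an ATP-gated cation channel, had 116, 139, 73 and 145 counts in controls and 160, 172, 253 and 181 after VNS. The groups were apart, at 340 ± 81.7 and 544 ± 88.7 CPM (SD, n = 4 each), and the log2 fold change was 0.68 (SE 0.21, 95% interval 0.23 to 1.13). Camkk2, a kinase that activates CaM kinases and AMPK, faces P2rx4 at 5421 bp in rn5 and overlaps it in GRCr8. In hippocampal libraries P2rx4 was at 8.70 CPM and Camkk2 at 62.8 CPM. P2rx4 was thus the lower of this pair where strand was not used, and the cortical level of the record was 442 CPM. Among the records of smallest p, Trpv3, Ak3 and Evpl were also below the facing gene in the hippocampus. Others were above it, namely Igsf8 (120 against 57.0 CPM), Ddx17 (68.2 against 1.04 CPM), Hnrnpa3, Lztr1, Abcb6, Mtch1, Sh3bp5 and Ovca2. Mtrex was above Plpp1, which overlaps it. The source of these reads was not tested.

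Trpv3, a heat-sensitive cation channel, and Ak3, a mitochondrial adenylate kinase, split the control libraries. Trpv3 had 34, 217, 257 and 162 counts in control libraries 1 to 4 and 88, 64, 56 and 94 after VNS (log2 fold change -1.14, SE 0.37). Ak3 had 39, 262, 272 and 164 counts in control libraries 1 to 4 and 96, 109, 81 and 76 after VNS (-1.002, SE 0.35). In both records control library 1 lay below all VNS libraries and the other 3 controls above them. Without control library 1 both passed in edgeR's quasi-likelihood test (Trpv3 -1.46, adjusted p = 0.00484, and Ak3 -1.32, adjusted p = 0.00702). Trpv3 passed in 2 and Ak3 in 1 of 19 alternatives, with their weakest fold changes at -0.74 and -0.64. Over the 8 libraries their log2 CPM went together (Pearson r 0.94, Spearman rho 0.88), a description of a pair chosen after their values were seen. Both are flanked on the other strand, Trpv3 by Aspa, the oligodendrocyte enzyme aspartoacylase, at 6791 bp (overlapping in GRCr8), and Ak3 by Cdc37l1, a co-chaperone gene, at 6333 bp.

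Hnrnpa3, an RNA-binding protein whose 3 records share exonic bases, had 41, 27, 20 and 21 counts in controls and 8, 12, 15 and 18 after VNS in 1 of them (log2 fold change -1.08). Sfpq, a splicing and paraspeckle protein, had 18, 41, 33 and 43 counts in controls and 17, 19, 21 and 13 after VNS (-0.94). The RNA helicase gene Ddx17 had 24, 31, 31 and 28 counts in controls and 9, 14, 22 and 15 after VNS (-0.95). CPM did not overlap between the groups in any of the 3. Cpsf2, a subunit of the cleavage and polyadenylation factor, had 21, 35, 15 and 29 counts in controls and 59, 29, 39 and 50 after VNS (0.83). Mtrex, the helicase of the nuclear exosome, had 70, 77, 63 and 65 counts in controls and 107, 81, 121 and 105 after VNS (0.57). These 2 also had groups apart in CPM, on the higher side. Sfpq had no opposite-strand neighbour by these criteria. Ddx17 is faced by Kdelr3 at 1681 bp, Hnrnpa3 by Nfe2l2 at 5497 bp, Cpsf2 is overlapped by Ndufb1 in GRCr8, and Mtrex shares 105 exonic bases with Plpp1.

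The remaining records had log2 fold changes from -1.39 to 1.39. Those without an opposite-strand neighbour were Myo1a, an unconventional myosin of brush borders (1.39, SE 0.44), the zinc finger gene Zfp46 (1.24), the CREB-like gene Crebl2 (-1.10), the transcription factor gene Klf5 (-1.17), the microtubule minus-end protein gene Camsap1 (-1.30) and the actin-binding protein gene Svil (-1.39). Klf5, Camsap1 and Svil had groups apart, with VNS lower. Camsap1 met the read filter only through the controls, so its groups had to differ in this direction. Those with such a neighbour were Lztr1 (0.91, faced by Thap7 at 1918 bp), Abcb6 (-1.39, Zfand2b at 106 bp) and Sh3bp5 (-1.37, Capn7 at 1558 bp). In GRCr8 uncharacterised loci overlap Srgap2, a regulator of spine maturation (1.36), Arhgef3 (-1.32) and Mtch1 (-0.78) on the other strand.

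**Figure D3:**
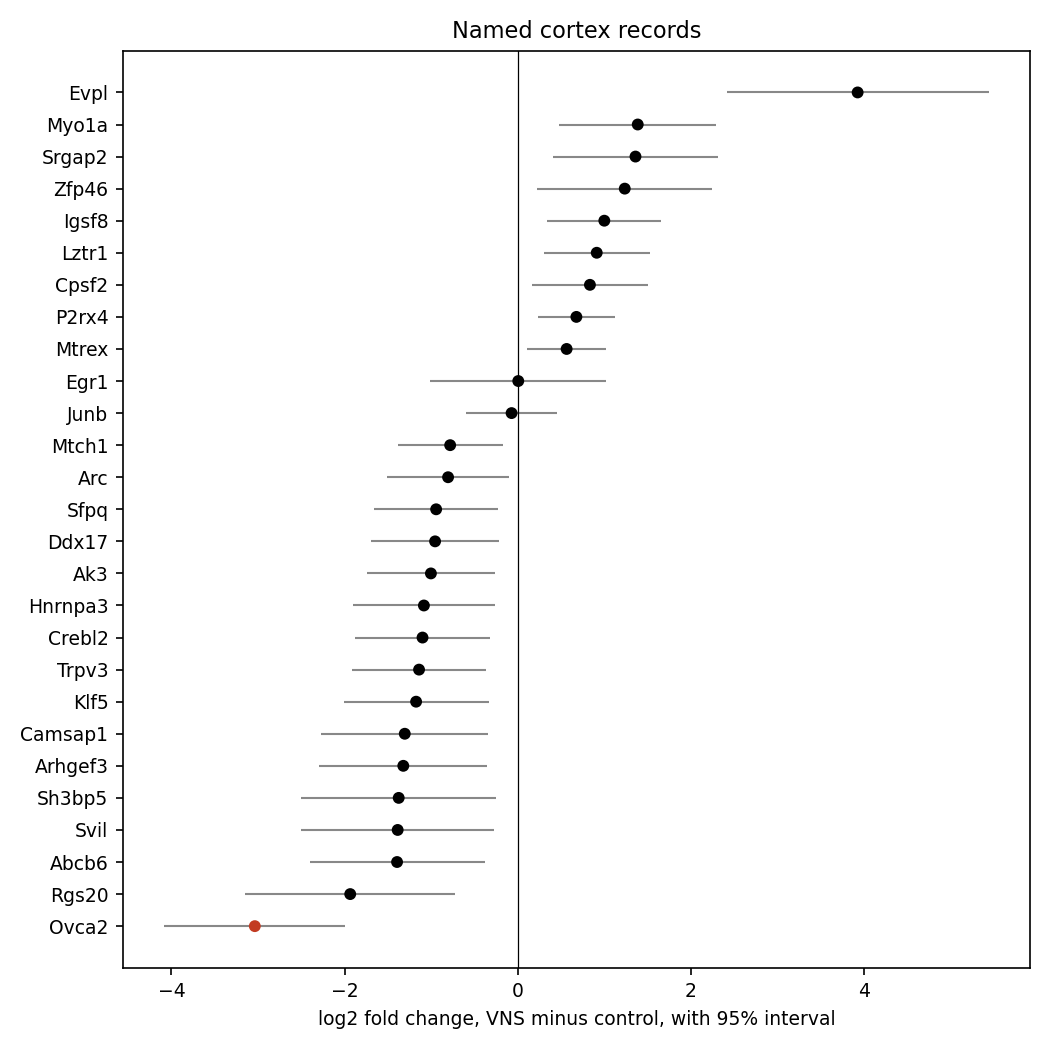
Log2 fold change, VNS minus control, of 27 named cortex records (points) with its 95% interval (lines). These are the 24 records of smallest p with a symbol together with Arc, Egr1 and Junb. Ovca2 (red), at -3.04, is the only record that passed the adjusted threshold, and the intervals of Egr1 and Junb include 0.

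The question of strand was then put to all records. Those whose exons overlap exons of a record on the other strand were 3.79% of the annotation (693 of 18278) but held 35.5% of cortex counts, from 33.4% to 38.3% by library. The same records held 9.58% of hippocampal counts, from 3.91% to 17.5% by library. Of these 693 records, 455 (65.7%) passed the read filter, against 1602 of 10702 (14.97%) among records with no opposite-strand neighbour. A further 23.7% of cortex counts lay in records that a gene on the other strand overlaps in GRCr8 and 15.7% in records faced within 10 kb. Records with no such neighbour held 22.3% of cortex and 46.5% of hippocampal counts.

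Cortex levels were set beside hippocampal levels. Over the 455 tested records with such overlap, cortex CPM had a Spearman rho of -0.05 with the hippocampal CPM of the same record and of 0.37 with that of its opposite-strand partner. For the other 3590 tested records rho with the same record was 0.06, and over all 12837 records with a count in both tissues it was 0.52. Cortex CPM was over 10 times the hippocampal CPM of the same record in 295 of them (64.8%), compared with 22.03% of the other 3590 tested records and 14.2% of those without any neighbour. Over the 840 tested records faced within 10 kb, rho was 0.02 with the same record and 0.10 with the facing one. These are descriptions across records, which are not replicates. Counting in the hippocampus left out reads in bases shared by overlapping records, and the libraries also differ in RNA selection.

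**Figure D4:**
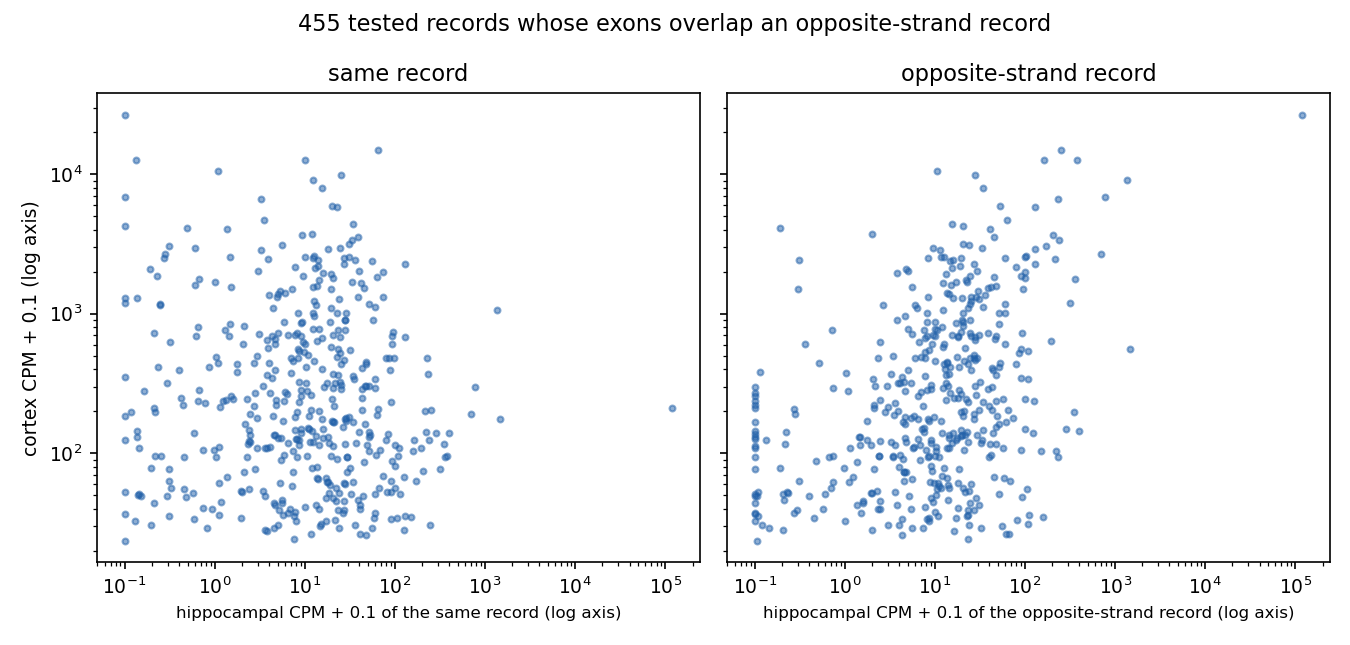
Mean cortex CPM of the 455 tested records whose exons overlap an opposite-strand record, against hippocampal CPM of the same record (left) and of the opposite-strand record (right), on log axes with a small constant added. The cloud has no slope in the left panel (rho -0.05) and rises in the right panel (rho 0.37).

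Levels at single loci are given for some of the most abundant records and for Chrna2, a less abundant one. Foxh1, a mediator of nodal signalling in the early embryo, had 3262, 4612, 4281 and 4638 counts in cortex controls and 3902, 4971, 4469 and 4700 after VNS. In the hippocampus it was at 0.04 CPM on average. It shares 396 exonic bases with Kifc2, a kinesin gene on the other strand that stood at 163 hippocampal CPM. The same held for Tmem150b, a transmembrane protein gene at 12578 cortex and 10.0 hippocampal CPM that shares 53 bases with Brsk1, a neuronal polarity kinase gene (379 hippocampal CPM). Nme7, a nucleoside diphosphate kinase gene, was at 9129 cortex and 12.2 hippocampal CPM and shares 183 bases with Atp1b1, a sodium pump subunit gene (1361 hippocampal CPM). Chrna2, a nicotinic receptor subunit gene, does not overlap but is faced at 2211 bp by Ptk2b, an abundant forebrain tyrosine kinase gene. In the hippocampus Chrna2 was at 3.72 and Ptk2b at 548 CPM, while the cortex record of Chrna2 stood at 302 CPM. In these 4 pairs the opposite-strand gene was the higher one in the hippocampus. The same was true of all 10 records of highest cortex level, where an overlapping (7 records) or facing gene was compared. Among the 455 overlapping records the share was 51.6%. Many pairs enter this share from both sides, and facing pairs are not part of it, so it is a weak background.

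None of the 10 most abundant records passed, and their fold changes were small. Stk11, a kinase upstream of AMPK that shares 298 bases with Cbarp, had a log2 fold change of 0.05 (SE 0.15, 95% interval -0.27 to 0.36). Foxh1 had a 95% interval from -0.22 to 0.39 and Wdr54, which overlaps Rtkn, from -0.33 to 0.25. These intervals leave out a 2-fold change in either direction. The record at the highest level (NM_147136, opposite the 28S ribosomal RNA gene Rn28s) had 10162, 6491, 5711 and 6909 counts in controls and 22236, 3667, 3989 and 13251 after VNS. VNS libraries 1 and 4 were high and 2 and 3 low, so the groups overlapped (0.54, 95% interval -0.29 to 1.38).

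By class, the opposite-strand-overlapping records had 0 calls by edgeR's test and 8 of 455 at an unadjusted p under 0.05 (1.76%), and those with no neighbour had 30 of 1602 (1.87%), against 2.35% of all tested. Ovca2 belonged to the 840 records faced within 10 kb, of which 28 (3.33%) had such a p. The median log2 fold change was 0.03 in the first class and -0.04 in the second, beside -0.02 over all records.

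**Figure D5:**
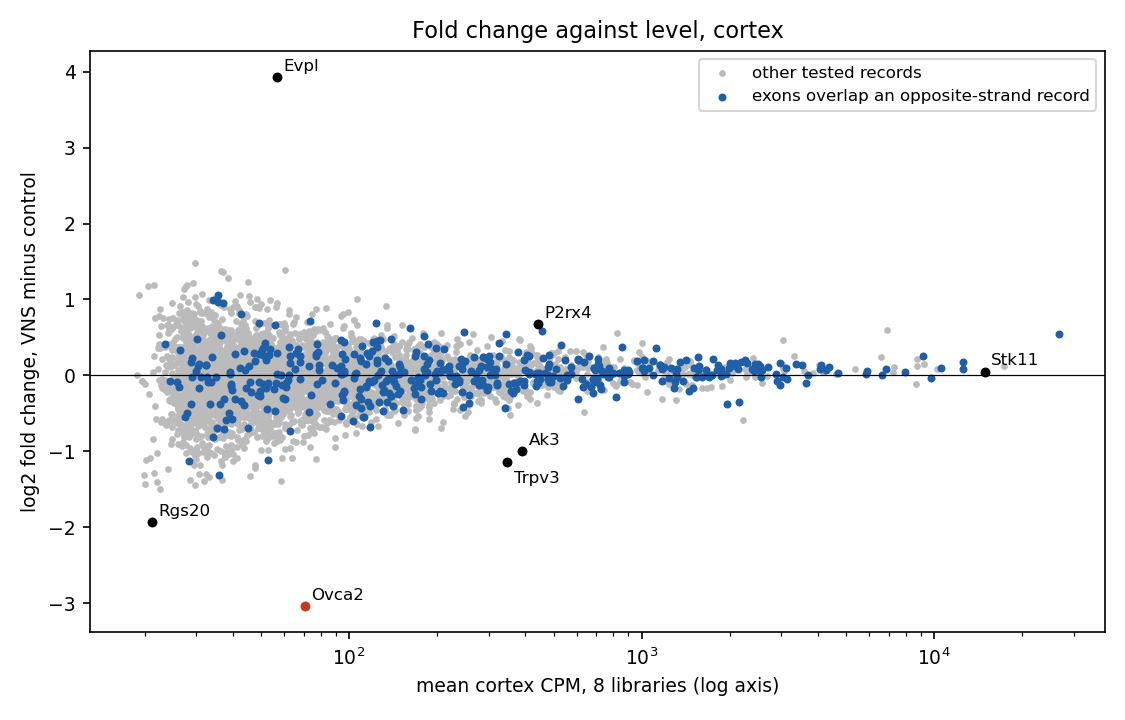
Log2 fold change, VNS minus control, against mean cortex CPM (log axis) for the 4045 tested records. Records whose exons overlap an opposite-strand record (blue) make up much of the high end and lie near 0, whereas Ovca2 and Evpl stand apart at mean levels of 70.8 and 56.9 CPM.

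Immediate early genes were examined as the standard readout of neuronal activity. Of 38 in the list 13 were tested, with 0 called by edgeR and 2 at an unadjusted p under 0.05 (beside 2.35% of all tested records), 6 higher and 7 lower, and a median log2 fold change of -0.04. Arc, a regulator of synaptic strength, had 21, 51, 30 and 25 counts in controls and 12, 18, 20 and 22 after VNS. All VNS libraries lay below all controls (log2 fold change -0.80, SE 0.34, adjusted p = 0.9995, edgeR quasi-likelihood test). Arc had no opposite-strand neighbour by the criteria used here. Dusp6, a phosphatase that inactivates ERK, had 20, 25, 12 and 19 counts in controls and 31, 25, 29 and 40 after VNS, with the groups apart in CPM (0.71, SE 0.33).

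Egr1, a zinc finger transcription factor of the same list, stood at 39.2, 65.7, 60.5 and 26.2 CPM in controls and at 64.6, 11.9, 40.1 and 76.8 CPM after VNS (0.01, SE 0.49, 95% interval -1.007 to 1.02), a range that holds 2-fold changes in both directions. Junb was at 202 ± 51.3 and 192 ± 23.04 CPM (SD, n = 4 each), with an interval from -0.59 to 0.45. Egr1 had no opposite-strand neighbour by these criteria, but Junb is faced by Prdx2 at 2877 bp. In the hippocampus Junb was at 34.6 and Prdx2 at 92.1 CPM, while the cortex record of Junb stood at 197 CPM. Which strand gave the reads of Junb was not tested. The other tested transcription factors of the list, Fosl1, Egr4, Klf4, Jun and Nr4a3, had log2 fold changes from -0.17 to 0.31. Nr4a1, an orphan nuclear receptor with too few reads to test, had 9, 17, 12 and 12 counts in controls and 7, 4, 3 and 6 after VNS, with every VNS library below every control. Fos, also untested, had 2, 7, 2 and 1 counts in controls and 1, 0, 0 and 5 after VNS. Npas4, an activity-dependent transcription factor, had at most 2 counts in any library. A difference in Fos or Npas4 was not detectable at these counts. Whether depth or the strand option kept the counts low was not tested.

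The transmitter systems reached by vagal afferents were covered by 34 adrenergic, cholinergic and serotonin receptors, of which 7 were tested and 0 had an unadjusted p under 0.05 (median -0.01). The 2 of smallest p were Chrna2 (-0.28) and the muscarinic receptor gene Chrm4 (-0.64), which lies 263 bp from Mdk on the other strand. The beta-1 adrenergic receptor gene Adrb1 was at -0.007. Of 7 tested neurotrophin and CREB records (median -0.14) 1, Crebl2, had an unadjusted p under 0.05, beside 2.35% of all tested records, and no record of the growth factor gene Bdnf exceeded 4 counts in a library. Glutamate receptor and postsynaptic genes (13 tested, median -0.01) and GABA genes (8 tested, median -0.05) lay on both sides of 0. Grin2a, an NMDA receptor subunit, was at -0.75, and Gphn, the scaffold of inhibitory synapses, at -0.32. The late activity-regulated genes, among them Rgs4 (0.41) and Nptx1 (-0.31), had a median of 0.03 over 7 tested.

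No gene of the stress and metabolic lists passed in edgeR's quasi-likelihood test. Of 8 tested glucocorticoid receptor and target genes 7 had lower values (median -0.33), as had 2126 of all 4045 tested records (median -0.02). The members of smallest p were the transcription factor gene Klf9 (-0.39) and the mTOR inhibitor gene Ddit4 (-0.42). Fkbp5, which dampens the glucocorticoid receptor, had too few reads to test. Its counts were 14, 6, 4 and 2 in controls and 0, 2, 2 and 2 after VNS, and the groups overlapped in CPM. Hypoxia-response genes had a median of -0.60 over 5 tested, with the glucose transporter gene Slc2a1 at -0.69 and Ndrg1 at -0.60. Ndrg1, whose value is this median, met the read filter only through the controls, so it had to be lower after VNS. The median of the hypoxia list was -0.27 without VNS library 1 and -0.25 without control library 4. Of 29 respiratory chain genes 19 had lower values (median -0.12), among them Cox4i1 at -0.59, while the complex I subunit gene Ndufa5 was at 0.90. Heat shock chaperones (15 tested, median -0.04), ribosomal proteins (19 tested, 0.05) and splicing factors (28 tested, 0.07) lay near the median of all records. Of the 28 splicing factors 17 had higher and 11 lower values. An unadjusted p under 0.05 was found for 4 of them, beside 2.35% of all tested records. These were Hnrnpa3, Sfpq and Ddx17, which were lower, and Cpsf2, which was higher.

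The cortical label was set beside marker genes as counted, whose sums may hold reads of the opposite strand. Mog, of the oligodendrocyte list, shares 94 exonic bases with Zfp57 on the other strand. It was at 740 CPM in cortex and 94.8 CPM in the hippocampus. Over all records of a list, tested or not, excitatory neuron markers summed to 1427 to 2283 CPM in controls and 1355 to 2159 CPM after VNS, and oligodendrocyte markers to 2632 to 3452 and 2161 to 4167 CPM. Astrocyte markers summed to 1678 to 3063 and 1969 to 2574 CPM, and blood markers to 65.3 to 122 and 58.8 to 116 CPM. In all these lists the groups overlapped and no member passed. Several defining markers, Snap25 of neurons and Aqp4, Slc1a2 and Slc1a3 of astrocytes, had 0 counts in every cortex library. Each of these genes has 3 to 5 records, among which shared reads go to none, and in the hippocampus Aqp4 and Slc1a3 were at 0, Snap25 at 0.59 CPM and Slc1a2 at 12.1 CPM. No thalamic or choroid plexus marker reached the read filter. Fewer cells of a type and less RNA per cell cannot be told apart in tissue samples.

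The precision of the comparison differed with the level of a record. The median SE of a log2 fold change was 0.39, and the 95% interval lay within 2-fold of no change for 1755 of 4045 records (43.4%). Of the 551 records with a mean of at least 300 CPM this held for 534 (96.9%), with a median SE of 0.20. In simulated data with these means and library sizes, 29 of 91 2-fold changes (31.9%) and 77 of 84 4-fold changes (91.7%) were called among 3707 records. The simulated spread depended on level alone, with no outlying record or library. Far more records changed than were called in the real data, which eases the adjusted threshold. These shares may therefore overstate detection here. Total counts, the share of counts in opposite-strand-overlapping records (34.9 ± 1.101% in controls and 36.0 ± 1.89% after VNS, SD, n = 4 each) and the share opposite Rn28s did not separate the groups (exact permutation test, two-sided, p = 0.657, 0.314 and 0.686, adjusted p = 0.686 for each of the 3, smallest possible p 0.0286). The first principal component, with 27.9% of the variance, set control library 1 at one end (-30.7) and control library 3 at the other (26.7), so it did not follow stimulation.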

How the data were processed

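Cortex RNA was poly(A)-selected and hippocampal RNA ribosome-depleted, per the labels. The authors' deposited values are raw read counts for each RefSeq record on rn5 from featureCounts 1.4.6-p2, with strand option 1 in cortex and none in hippocampus, per the file headers. Bowtie2, Trimmomatic and edgeR are named in the submitters' processing notes. No other step is given in the sources used here. 1 cortex column name carries an extra letter beside its sample's description.

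The 8 cortex libraries were fitted with edgeR 4.0.16 (R 4.3.3, TMM, two-sided glmQLFTest, no covariates, Benjamini-Hochberg over 4045 records, threshold 0.05). SE is the absolute log2 fold change divided by the root of F. Of 18278 records 17339 matched a symbol in the RefSeq table of GRCr8, used for names and neighbours only. "Facing" means an opposite-strand record whose 3′ end points at the 3′ end of the record within 10 kb. The fit called 6 of 3532 unchanged records when tested on simulated data. No libraries were duplicates (smallest chi-square per degree of freedom 3.35). The members and lists were chosen with earlier results of these data known. Named records were those called, the 24 of smallest p with a symbol, 8 preset symbols, 2 per list and the 10 of highest level, of which not all are reported here. Alternatives were DESeq2 1.42.0, limma-voom (limma 3.58.1), sva 3.50.0, 2 scalings, 3 filters, a robust fit, sums per symbol, and leaving out records or single libraries. When a library was left out the same records were kept, a choice made after applying the filter again had been seen to remove Ovca2.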

Additional observations from a re-analysis of the deposited data

Results flagged for a closer look

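Within groups of 4 libraries, 4 of 124 groups examined held a library far from the other 3, where chance gives about 1 in 20. Evpl in control library 1 stood at 29.4 CPM against 0 in the other controls. Myo1a in VNS library 1 stood at 40.0 CPM against 101.6 to 104.2 CPM in the other VNS libraries. P2rx4 in VNS library 3 was at 676.6 CPM against 492.0 to 511.3 CPM. Hnrnpa3 in control library 1 was at 133.9 CPM against 61.1 to 63.7 CPM.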

How the results depend on the processing

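The count of called records was 1, and ranged from 0 to 4 when 1 library was left out. It was 4 without control library 1 (Ovca2, Evpl, Trpv3 and Ak3), 0 when control library 2, 3 or 4, or VNS library 1 or 4, was dropped, and 0 to 3 with the filter applied again to the 7 libraries left, which was added after seeing the data. It was 2 with DESeq2 size factors, with 1 surrogate variable and without opposite-strand overlap (Ovca2 and Evpl each), 5 with no filter (13006 records tested, adding Dph1, Trpv3 and Kti12), 0 with 20 reads in 4 columns (2329 tested) and 0 with limma-voom, and 1 under the other settings. An unadjusted p under 0.05 was found for 98 records with limma-voom, 50 with 20 reads, 428 with no filter, 151 with 1 surrogate variable and 202 without control library 1. Ovca2 passed in 12 of 19 alternatives (adjusted p from 4.37e-08 to 0.998). It missed the threshold with 20 reads in 4 columns (log2 fold change -3.04, adjusted p = 0.0569) and limma-voom (-3.60), and its values with a library left out ranged from -3.43 to -2.61. Evpl passed in 5 of 19 (adjusted p from 5.43e-10 to 0.9996), its value of 8.25 without control library 1 being set by the prior count, since the controls left are all at 0. The cause of these changes was not tested. Among 1095 values of 59 named records 14 changed sign, all within 0.31 of 0. With limma-voom Egr1 was at -0.19. With 1 library left out, the values ranged from -0.31 to 0.33 for Egr1, from -0.22 to 0.081 for Junb, from -0.53 to 0.030 for Gphn, from -0.049 to 0.15 for Stk11, from -0.090 to 0.039 for Wdr54, from -0.0044 to 0.49 for Slc3a1, from -0.17 to 0.83 for the record opposite Rn28s (NM_147136) and from -0.042 to 0.18 for the record facing Shank1 (NM_001106255). Of 120 list medians 4 moved by more than their spread and 27 had the other sign. With an overlap of at least 100 bases, the opposite-strand share of cortex counts was 28.7%. No paired analysis was possible because the labels give no replicate numbers shared between groups. In the simulated data most 2-fold changes were missed at this depth, while real records of at least 300 CPM had narrower intervals. The source strand of single records cannot be settled without the reads.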

Other observations

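Kti12, a tRNA modification factor gene chosen after its values were seen, was called only when no filter was applied. It had 0, 4, 4 and 4 counts in cortex control libraries 1 to 4 and 190, 0, 1 and 0 in VNS libraries 1 to 4, so its value rests on 1 library.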
